A study of Mus musculus with 16 samples.

Results

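The 10 genes described here are Neurod1, Neurod4, Nhlh1, Nhlh2, Hes6, Sox4, Sox11, Elavl4, Dcx and Igfbpl1, which mark young neurons and their dividing precursors in many parts of the nervous system. They were picked by symbol from the 24411 genes of the count and TPM tables, after earlier results on the same libraries in which genes of this kind stood higher in ganglia that carry a MYCN transgene. Which libraries weighed in that choice is not recorded. It is assumed here that the levels in MYCN ganglia with wild-type Runx1t1, set against those in transgene-free ganglia, chose the members, and these are given below as a description without a test. MYCN ganglia labelled het and tumors may have weighed in it too. No comparison that uses libraries with the transgene is therefore taken as free of the choice. In the edgeR filter on low counts 8 of the 10 passed, while Neurod4 and Nhlh1 did not. Of the 8, Neurod1, Nhlh2 and Igfbpl1 passed only through the groups that carry the transgene, so counts over the 8 cannot stand for all 10. The collective name of the list held only in part, since Neurod4 and Nhlh1 were near 0 in every ganglion and the levels of Hes6 and Elavl4 in MYCN ganglia lay mostly within those of transgene-free ganglia.

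The series holds 16 mouse RNA-Seq libraries in 5 groups. Human MYCN was expressed from the Th promoter, which is active in neuroectodermal cells including the sympathetic lineage, in Th-MYCN mice (background 129/SvJ), and these were crossed with mice in which 1 Runx1t1 allele is inactivated by an insertion. The celiac ganglia, sympathetic ganglia of the abdomen in which these mice form neuroblastoma, came from 2-week-old animals. Those without the transgene were 4 of wild-type Runx1t1 genotype (transgene-free wild-type) and 3 labelled Runx1t1 het, and those homozygous for Th-MYCN were 3 of wild-type Runx1t1 genotype (MYCN wild-type) and 2 labelled Runx1t1 het. The 4 tumors also came from Th-MYCN homozygotes, wild-type for Runx1t1, and the labels do not give their age. The labels call the cell type neuroblastoma in every library, ganglia included. They do not say that each library came from a separate animal, so p-values measure the spread between these samples. The human transgene has no row in the mouse table. In bulk tissue a lower level can come from fewer cells of a type or from less RNA per cell, and these cannot be told apart.

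Depth ran from 10692299 to 38618757 counts per library. It was under 20000000 in 6 ganglia, among them both MYCN ganglia labelled het, and above it in all 4 tumors, so that depth and group overlap in part. Runx1t1, the targeted gene, was at 8.48 to 13.1 CPM in transgene-free wild-type ganglia and at 13.1 to 18.2 CPM in transgene-free ganglia labelled het, so its RNA did not separate the genotypes and the word labelled is kept. The sympathetic markers Th and Dbh were present in every library, with Dbh, the enzyme that makes noradrenaline, at 902 to 4268 TPM in ganglia and 44.1 to 245.5 TPM in tumors. Replicate 2 of the transgene-free wild-type ganglia stood apart, with 8 lymphocyte markers summing to 611.9 TPM against at most 11.1 TPM in any other library, and 14 sympathetic neuron markers summing to 7656 TPM against 12700 to 21110 TPM in the other 3 of its group. Tumor replicate 3 held 5 hepatocyte markers at a sum of 6607 TPM.

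New sympathetic neurons arise from neural crest precursors, which divide, switch on a series of transcription factors, leave the cell cycle and grow axons. Basic helix-loop-helix factors of the Neurod and Nhlh families act in this switch by binding short DNA sequences called E-boxes as dimers with E proteins. Sox4 and Sox11, close relatives within the SoxC group, activate pan-neuronal genes in newly born neurons, including genes of the cytoskeleton. Downstream of them stand proteins of the young neuron itself, such as the microtubule-binding protein doublecortin and the neuronal RNA-binding protein HuD, encoded by Elavl4. Several of these genes are expressed in neuroblastoma, a childhood cancer of this lineage often driven by extra copies of MYCN.

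Upstream sequences are shown for 4 transcription factors whose levels moved together across the MYCN ganglia, 2 of the E-box-binding family and 2 of the SoxC group. They are from RefSeq on GRCm38.p6, begin 250 bases before the RefSeq start and end before the GENCODE gene model, on the strand of the gene. Capitals mark matches to the E-box letters CANNTG, which read alike on both strands.
Neurod1 (chr2:79456752-79456886, minus strand): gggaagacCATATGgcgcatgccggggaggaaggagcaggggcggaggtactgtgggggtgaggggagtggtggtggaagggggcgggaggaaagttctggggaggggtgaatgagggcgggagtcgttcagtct
Nhlh2 (chr3:102009895-102010075, plus strand): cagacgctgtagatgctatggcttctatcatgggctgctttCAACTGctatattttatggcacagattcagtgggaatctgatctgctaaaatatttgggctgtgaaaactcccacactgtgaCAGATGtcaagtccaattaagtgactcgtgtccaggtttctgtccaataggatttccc
Sox4 (chr13:28953714-28953949, minus strand): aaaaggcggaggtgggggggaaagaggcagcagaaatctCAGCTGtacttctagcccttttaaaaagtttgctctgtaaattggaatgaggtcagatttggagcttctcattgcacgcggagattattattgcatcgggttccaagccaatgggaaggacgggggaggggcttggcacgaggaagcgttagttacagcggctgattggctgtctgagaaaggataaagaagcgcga
Sox11 (chr12:27342719-27342968, minus strand): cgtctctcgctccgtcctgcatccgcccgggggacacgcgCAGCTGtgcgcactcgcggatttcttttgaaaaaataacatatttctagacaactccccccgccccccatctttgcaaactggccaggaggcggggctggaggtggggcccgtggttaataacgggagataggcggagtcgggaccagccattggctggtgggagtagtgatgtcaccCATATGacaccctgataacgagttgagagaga
Positions are counted back from the RefSeq start to the first base of the match. Neurod1 held CATATG at -242, Nhlh2 held CAACTG at -209 and CAGATG at -127, Sox4 held CAGCTG at -211, and Sox11 held CAGCTG at -210 and CATATG at -32. RefSeq windows of 250 bases were found for 9 of the 10 genes, Igfbpl1 having no entry, and 10 of their 15 windows held CANNTG, against 66.2% of all 32851 windows. CACGTG, the E-box form best known as a MYC and MYCN site and 1 case of CANNTG, was in 0 of the 15 windows and in 6.02% of all. CAGATG on either strand, another case of CANNTG, was in 5 of the 15 (windows of Nhlh1, Nhlh2 and Elavl4) and in 14.4% of all. Windows of the same gene can overlap, and a pair of those of Elavl4 hold the same CAGATG and the same other matches to CANNTG. These matches describe letters in these windows and say nothing of binding.

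**Figure D1:**
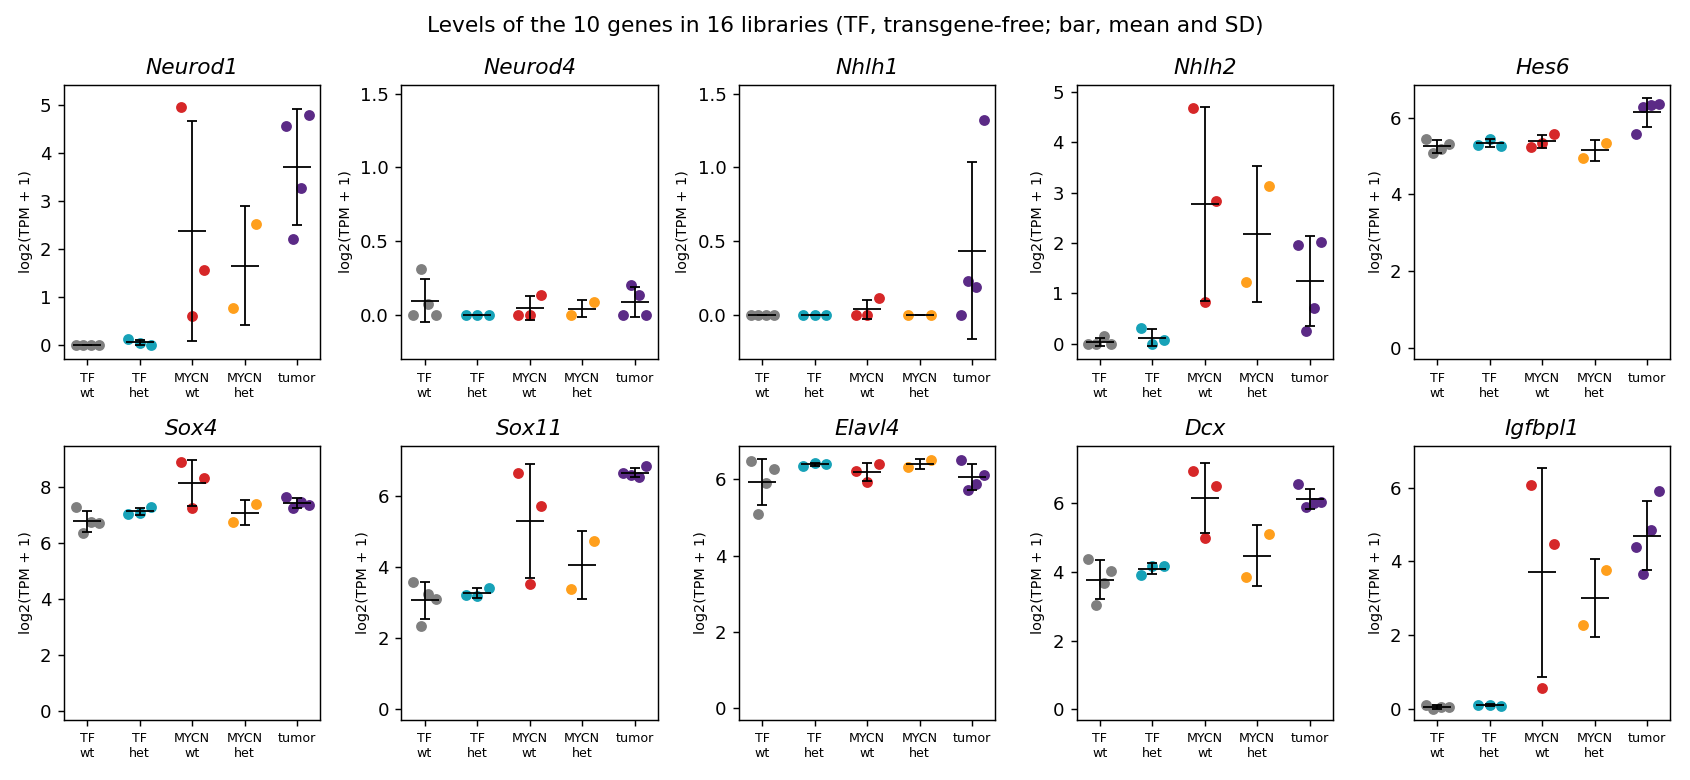
Level of each gene as log2(TPM + 1) in every library (points), by group, with the group mean and SD as bars; TF stands for transgene-free and wt and het for the Runx1t1 label. Neurod1, Nhlh2 and Igfbpl1 sit at or near 0 in all transgene-free ganglia, Neurod4 and Nhlh1 are near 0 in all ganglia, and Hes6 is highest in tumors.

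Among the helix-loop-helix factors, Neurod1 and Nhlh2 were nearly silent without the transgene and spread widely with it. Neurod1 (chr2:79452521-79456751 in GRCm38, minus strand, 2 exons), a late proneural factor that drives precursors to differentiate, was at 0 TPM in all 4 transgene-free wild-type ganglia and at 0.08, 0.03 and 0 TPM in replicates 1, 3 and 4 labelled het, which is at most 1 read. In MYCN wild-type ganglia it was at 30.3, 0.52 and 1.94 TPM in replicates 1, 3 and 4, and in MYCN ganglia labelled het at 0.70 and 4.76 TPM. Tumors 1 to 4 stood at 22.6, 3.59, 8.64 and 26.7 TPM. All libraries with the transgene were above all libraries without it, and the 3 MYCN wild-type ganglia differed among themselves by 66.7-fold in CPM. Neurod1 shares bases with Cerkl on the same strand and with a long noncoding RNA on the other, and the strand setting of the counting is not given in the sources used here, so some of its reads could belong to them.

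Nhlh2 (chr3:102010076-102015492, plus strand), known from developing neurons and the hypothalamus, was at 0, 0, 0.11 and 0 TPM in transgene-free wild-type replicates 1 to 4 and at 0.24, 0 and 0.05 TPM in replicates 1, 3 and 4 labelled het, with at most 4 reads. With the transgene it was at 24.6, 0.78 and 6.09 TPM in wild-type replicates 1, 3 and 4 and at 1.35 and 7.79 TPM in those labelled het. Tumors 1 to 4 had 2.91, 0.20, 0.64 and 3.08 TPM. Its 3 highest values were in ganglia, whereas for Neurod1 3 of the 4 tumors were above every ganglion but 1.

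The close relatives of both factors were hardly detected. Neurod4 (chr10:130268152-130280240, minus strand) was between 0 and 0.24 TPM in all 16 libraries, with at most 10 reads, and its highest value was in the transgene-free wild-type ganglion with lymphocyte markers. Nhlh1 (chr1:172052292-172057573, minus strand) was at 0 in every ganglion except MYCN wild-type replicate 4, with 0.08 TPM from 3 reads. In tumors Nhlh1 was at 0, 0.17, 0.14 and 1.5 TPM, the last from 70 reads. A count of 0 allows up to 3 reads, or 0.0775 to 0.275 CPM depending on the library, and covers counting error only. Neither gene could therefore be compared between groups of ganglia at this depth.

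Hes6 (chr1:91411483-91414038, minus strand, 4 exons), a relative of the Notch effector Hes1 that opposes it and favours neuronal differentiation, was expressed in every library and was highest in the tumors. Transgene-free wild-type ganglia 1 to 4 had 42.8, 32.6, 35.2 and 38.9 TPM (37.4 ± 4.44, SD, n = 4), and replicates 1, 3 and 4 labelled het had 38.4, 42.7 and 37.4 TPM. MYCN wild-type replicates 1, 3 and 4 had 37.0, 39.6 and 46.4 TPM, and those labelled het had 30.2 and 39.6 TPM. In tumors 1 to 4 it was at 47.0, 76.7, 80.4 and 80.7 TPM (71.2 ± 16.2, SD, n = 4). All 4 tumors were above all 12 ganglia, with the margin of tumor 1 over MYCN wild-type replicate 4 small on the TPM scale.

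Both SoxC genes have a single exon, and Sox4 was above Sox11 per unit length in every library, with a smaller ratio of Sox4 to Sox11 in each tumor than in any ganglion. Sox4 (chr13:28948919-28953713, minus strand) was at 153, 80.4, 107 and 104 TPM in transgene-free wild-type ganglia 1 to 4 and at 130.3, 134 and 153 TPM in replicates 1, 3 and 4 labelled het. MYCN wild-type replicates 1, 3 and 4 had 469, 149.7 and 314 TPM, and those labelled het had 107 and 167 TPM. The tumors 1 to 4 were at 199, 151, 175 and 162 TPM. Replicates 1 and 4 of the MYCN wild-type ganglia were the highest of all libraries, while replicate 3 lay within the transgene-free range. Sox4 shares bases with a long noncoding RNA on the other strand, so its reads carry the same uncertainty as those of Neurod1.

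Sox11 (chr12:27334264-27342574, minus strand) was at 10.9, 4.06, 8.48 and 7.54 TPM in transgene-free wild-type ganglia 1 to 4 (7.75 ± 2.84, SD, n = 4) and at 8.29, 8.10 and 9.74 TPM in replicates 1, 3 and 4 labelled het (8.71 ± 0.897, SD, n = 3). It was at 99.5, 10.5 and 52.2 TPM in MYCN wild-type replicates 1, 3 and 4 and at 9.42 and 25.9 TPM in those labelled het. Tumors 1 to 4 had 100.5, 95.9, 92.0 and 114 TPM (100.6 ± 9.66, SD, n = 4). The tumors were close to each other, whereas the 3 MYCN wild-type ganglia spanned the range from the transgene-free level to that of the tumors, a 10.9-fold spread in CPM.

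Among genes of the young neuron, Dcx followed Sox11 in order across the 5 MYCN ganglia and Elavl4 did not. In tumors Dcx and Sox11 parted, with ratios of mean CPM to MYCN wild-type ganglia of 1.09 and 2.32. Dcx (chrX:143855842-143933311, minus strand), which encodes doublecortin and is needed for neuronal migration, was at 19.7, 7.21, 11.96 and 15.2 TPM in transgene-free wild-type ganglia 1 to 4 and at 14.2, 17.3 and 17.2 TPM in replicates 1, 3 and 4 labelled het. MYCN wild-type replicates 1, 3 and 4 had 122, 30.95 and 90.5 TPM, and those labelled het had 13.4 and 33.2 TPM. In tumors 1 to 4 Dcx was at 94.3, 58.6, 63.4 and 64.4 TPM. Of the 5 MYCN ganglia, 4 were above all 7 transgene-free ganglia and replicate 1 labelled het was within their range.

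Elavl4 (chr4:110203722-110351909, minus strand), whose protein HuD stabilizes neuronal mRNAs, had 87.6, 32.9, 58.4 and 75.9 TPM in transgene-free wild-type ganglia 1 to 4 and 79.8, 84.7 and 83.2 TPM in replicates 1, 3 and 4 labelled het. MYCN wild-type replicates 1, 3 and 4 had 73.5, 59.7 and 83.5 TPM, those labelled het had 78.4 and 89.3 TPM, and tumors 1 to 4 had 89.5, 51.7, 57.3 and 68.2 TPM. The groups overlapped throughout, and the lowest value was in the transgene-free ganglion with lymphocyte markers and a low sum of sympathetic markers.

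Igfbpl1 (chr4:45809468-45826923, minus strand, 5 exons) encodes a secreted protein related to the insulin-like growth factor binding proteins and marks young neurons. It was at 0.08, 0, 0.03 and 0.03 TPM in transgene-free wild-type ganglia 1 to 4 and at 0.08, 0.08 and 0.06 TPM in replicates 1, 3 and 4 labelled het, from at most 3 reads. MYCN wild-type replicates 1, 3 and 4 had 66.2, 0.47 and 21.3 TPM, and those labelled het had 3.8 and 12.6 TPM. Tumors 1 to 4 had 19.8, 11.7, 27.6 and 58.7 TPM. Every library with the transgene was above every one without it, and the 3 MYCN wild-type ganglia differed by 161-fold in CPM, the widest spread among the members in that group.

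Per unit length, the order of the group means in MYCN wild-type ganglia was Sox4 (311 ± 159.6 TPM, SD, n = 3), Dcx (81.2 ± 46.4), Elavl4 (72.3 ± 11.96), Sox11 (54.1 ± 44.5), Hes6 (41.0 ± 4.84), Igfbpl1 (29.3 ± 33.6), Neurod1 (10.9 ± 16.8) and Nhlh2 (10.5 ± 12.49), with Neurod4 and Nhlh1 near 0. Neighbours in this order from Dcx down to Nhlh2 differed by less than the larger of their SDs. In tumors the order was Sox4 (172 ± 20.5 TPM, SD, n = 4), Sox11 (100.6 ± 9.66), Hes6 (71.2 ± 16.2), Dcx (70.2 ± 16.3), Elavl4 (66.7 ± 16.7), Igfbpl1 (29.4 ± 20.5), Neurod1 (15.4 ± 11.04) and Nhlh2 (1.71 ± 1.499). Here neighbours differed by more than the larger of their SDs, except for Hes6, Dcx and Elavl4 among themselves and for Igfbpl1 and Neurod1.

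**Figure D2:**
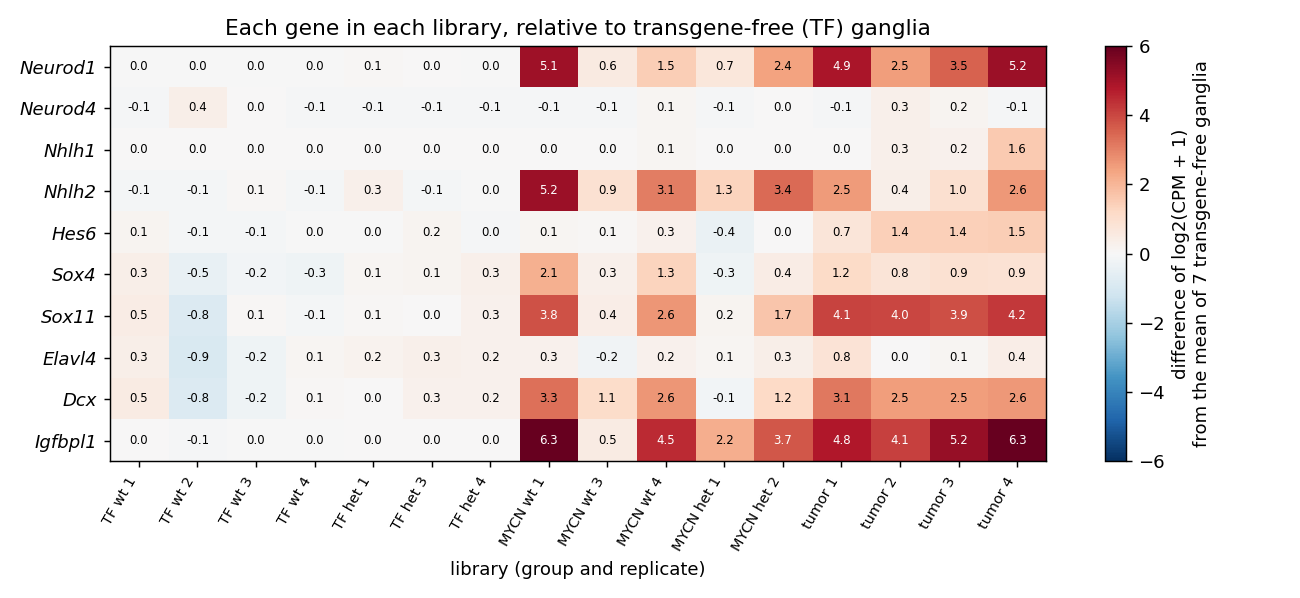
Difference of log2(CPM + 1) from the mean of the 7 transgene-free (TF) ganglia for each gene (rows) in each library (columns, group and replicate); red is higher and blue lower. MYCN wt 1 and the 4 tumors are high for most genes, MYCN wt 3 and MYCN het 1 are near the transgene-free level for Sox4, Sox11, Hes6 and Elavl4, and TF wt 2 is low for Sox11, Elavl4 and Dcx.

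In the contrast taken to have chosen the genes, MYCN wild-type against transgene-free wild-type ganglia, 4 of the 8 genes that passed the filter (Neurod1, Nhlh2, Dcx and Igfbpl1) had every MYCN library above every control library, beside 4.72% of all 16665 genes tested. The count was 7 without transgene-free wild-type replicate 1 and 6 without MYCN wild-type replicate 3, and since this contrast is taken to have named the members nothing is read from it. In log2 fold change with its standard error, Sox11 was at 2.91 (0.57), Dcx at 2.67 (0.45), Sox4 at 1.56 (0.32), Elavl4 at 0.23 (0.26) and Hes6 at 0.17 (0.19). Neurod1 had 445 reads over the group against 0, which is 169-fold when set against a floor of 3 reads over the control group, with an exact 95% lower limit of 136.6-fold (counting error only). The ratio of summed counts, scaled for library size, was 659 for Igfbpl1 (95% exact interval 225 to 3200, counting error only) and 209.6 for Nhlh2 (81.5 to 771). Replicate 1 carried much of this, as the ratio of mean CPM went from 7.52 to 3.96 for Sox11, from 6.38 to 4.41 for Dcx and from 2.96 to 2.05 for Sox4 when it was left out. It went from 943 to 312 for Igfbpl1 and from 435 to 127 for Nhlh2, and replicate 1 held 361 of the 445 reads of Neurod1. Without transgene-free wild-type replicate 2 the log2 fold changes were 2.72 for Sox11, 2.48 for Dcx, 1.46 for Sox4, 0.034 for Elavl4 and 0.14 for Hes6.

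The 5 MYCN ganglia stood in nearly the same order for the genes that moved. For Sox4, Sox11 and Dcx, CPM fell from wild-type replicate 1 to wild-type 4, het-labelled 2, wild-type 3 and het-labelled 1. For Igfbpl1 the last 2 places were exchanged, and for Neurod1 and Nhlh2 the order was wild-type 1, het-labelled 2, wild-type 4, het-labelled 1 and wild-type 3. Wild-type replicate 3 was therefore below at least 1 ganglion labelled het for each of the 6 genes. The summed TPM of 10 cycling cell markers, such as Mki67, none at 0 in any group, ran in the same order as Sox4, Sox11 and Dcx, at 1268, 127.8 and 681 TPM in MYCN wild-type replicates 1, 3 and 4 and at 96.8 and 263 TPM in those labelled het. In the transgene-free ganglia that sum was at 67.6 to 94.6 TPM except for 349 TPM in wild-type replicate 2, where Sox11 and Dcx were at their lowest. Runx1t1 itself was at 243, 23.4 and 110.6 CPM in MYCN wild-type replicates 1, 3 and 4 and at 25.3 and 49.9 CPM in those labelled het, the order of Igfbpl1. These orders were noticed after the values were seen, and the part of cell division or of Runx1t1 RNA in the members' levels was not tested.

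**Figure D3:**
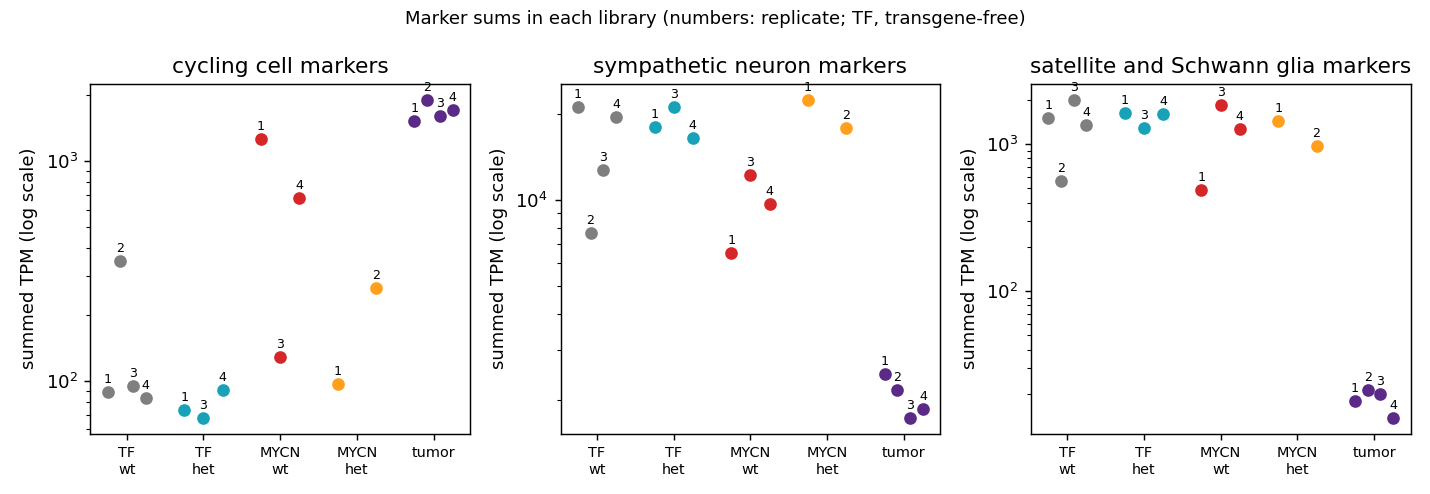
Summed TPM (log axis) of 10 cycling cell, 14 sympathetic neuron and 8 satellite and Schwann glia markers in every library, by group; numbers beside points are replicates. Cycling markers in MYCN ganglia run from 96.8 to 1268 TPM, and tumors have the highest cycling sums (1529 to 1910 TPM) and the lowest glia sums (13.8 to 21.4 TPM).

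In mice labelled Runx1t1 het, 2 MYCN ganglia were set against 3 transgene-free ones. As the genes were picked for being high with the transgene, possibly in these libraries too, the direction of their values here is a description and not independent of that choice. Neurod1, Nhlh2 and Igfbpl1 had both MYCN libraries above all 3 transgene-free ones, beside 10.5% of all genes tested, and their summed counts, scaled for library size, stood at 94.7 times (95% exact interval 25.2 to 798, counting error only), 73.1 times (32.8 to 202) and 105 times (47.5 to 289.5) the control value. MYCN replicate 2 held most of these reads, 58 of 67 for Neurod1, 131 of 155 for Nhlh2 and 169 of 223 for Igfbpl1. These 3 genes passed the filter only through groups with the transgene. Sox11 was at a log2 fold change of 0.99 (SE 0.65) and Dcx at 0.50 (SE 0.52), with MYCN replicate 2 above and replicate 1 within or near the transgene-free values. Sox4 (-0.05), Elavl4 (-0.02) and Hes6 (-0.22) showed values near 0. By edgeR's quasi-likelihood test with Benjamini-Hochberg adjustment 0 of the 8 genes passed, where 0% of all genes did, although 242 genes had an unadjusted p under 0.05, among them Igfbpl1, Nhlh2 and Neurod1, each with an adjusted p of 1. DESeq2 called 14 genes, among them Igfbpl1, and an edgeR fit of these 2 groups alone also called Igfbpl1. As Igfbpl1 was picked, and kept by the filter, for being high with the transgene, nothing is read from these calls. The cycling sum was at 96.8 and 263 TPM in these MYCN ganglia against 67.6 to 90.5 TPM, 0 of its 10 markers passed, and its part in the result was not tested.

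Between MYCN ganglia labelled het and MYCN wild-type ganglia, Sox4, Sox11 and Dcx were lower in those labelled het by mean, without passing the adjusted test. Their log2 fold changes by edgeR were -1.32 for Sox4 (SE 0.41, adjusted p = 0.300), -1.77 for Sox11 (SE 0.70, adjusted p = 0.358) and -1.93 for Dcx (SE 0.56, adjusted p = 0.284), and these 3 had an unadjusted p under 0.05. Igfbpl1 (-2.01, SE 1.2, adjusted p = 0.501), Neurod1 (-2.20, SE 1.56, adjusted p = 0.588) and Nhlh2 (-1.37, SE 1.49, adjusted p = 0.744) did not pass. Hes6 was at -0.34 and Elavl4 at 0.10. Of the 8 genes 0 were called, where 0.012% of all genes were (2 genes, with 2094 at an unadjusted p under 0.05), while DESeq2 called 251 genes, of the 8 only Dcx (adjusted p = 0.0311). The calls in this comparison turned on single ganglia. Without MYCN wild-type replicate 3, Sox4 (-1.67, adjusted p = 0.0310), Sox11 (-2.26, adjusted p = 0.0428) and Dcx (-2.33, adjusted p = 0.0368) passed, and without replicate 1 they were at -0.78, -0.84 and -1.39 with adjusted p of 0.666, 0.831 and 0.639. The share of all genes called in these leave-out fits is not given here, so nothing is read from the number of members passing. The MYCN wild-type ganglia are also taken to have named the members, so the direction is not free of that choice. The sympathetic marker sum was at 17790 and 22460 TPM in the ganglia labelled het against 6536 to 12260 TPM, with 0 of 14 markers called (median log2 fold change 0.71). The cycling sum, at 96.8 and 263 TPM against 127.8 to 1268 TPM, had 0 of 10 markers called (median -2.23), and the part of neither in these values was tested.

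The difference between the transgene's effect in het-labelled and in wild-type ganglia was tested as an interaction. Sox4 (-1.62, SE 0.51), Dcx (-2.18, SE 0.70) and Sox11 (-1.92, SE 0.88) had smaller log2 effects in ganglia labelled het, each with an adjusted p of 0.845 by edgeR and an unadjusted p under 0.05. None of the 8 passed, where 0% of all genes did (937 at an unadjusted p under 0.05, and 30 genes, 0 of them members, by DESeq2). This contrast contains the one taken to have chosen the members, so its direction for them is not free of that choice. Leaving out transgene-free wild-type replicate 2 gave -1.51 for Sox4 (adjusted p = 0.633), -1.99 for Dcx (adjusted p = 0.633) and -1.73 for Sox11 (adjusted p = 0.670). Single MYCN ganglia moved these values more. Without MYCN wild-type replicate 1 they were -1.09 for Sox4, -1.64 for Dcx and -0.99 for Sox11. Without MYCN replicate 2 labelled het they were -2.01, -3.01 and -2.86.

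Without the transgene, ganglia labelled Runx1t1 het and wild-type ganglia gave no call among the 8 genes, where 0% of all genes were called (687 at an unadjusted p under 0.05, none of them a member, and 2 genes by DESeq2, 0 of them members). Elavl4 was at a log2 fold change of 0.36 (SE 0.26), Sox4 at 0.30 (SE 0.32), Dcx at 0.25 (SE 0.44), Sox11 at 0.15 (SE 0.55) and Hes6 at 0.06 (SE 0.19), all with an adjusted p of at least 0.993 by edgeR. Part of this rested on transgene-free wild-type replicate 2, without which Elavl4 was at 0.16, Sox4 at 0.20, Dcx at 0.06 and Sox11 at -0.03. Neurod1, Nhlh2 and Igfbpl1 had at most 4 reads in any of these 7 libraries, so no fold is read from them.

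**Figure D4:**
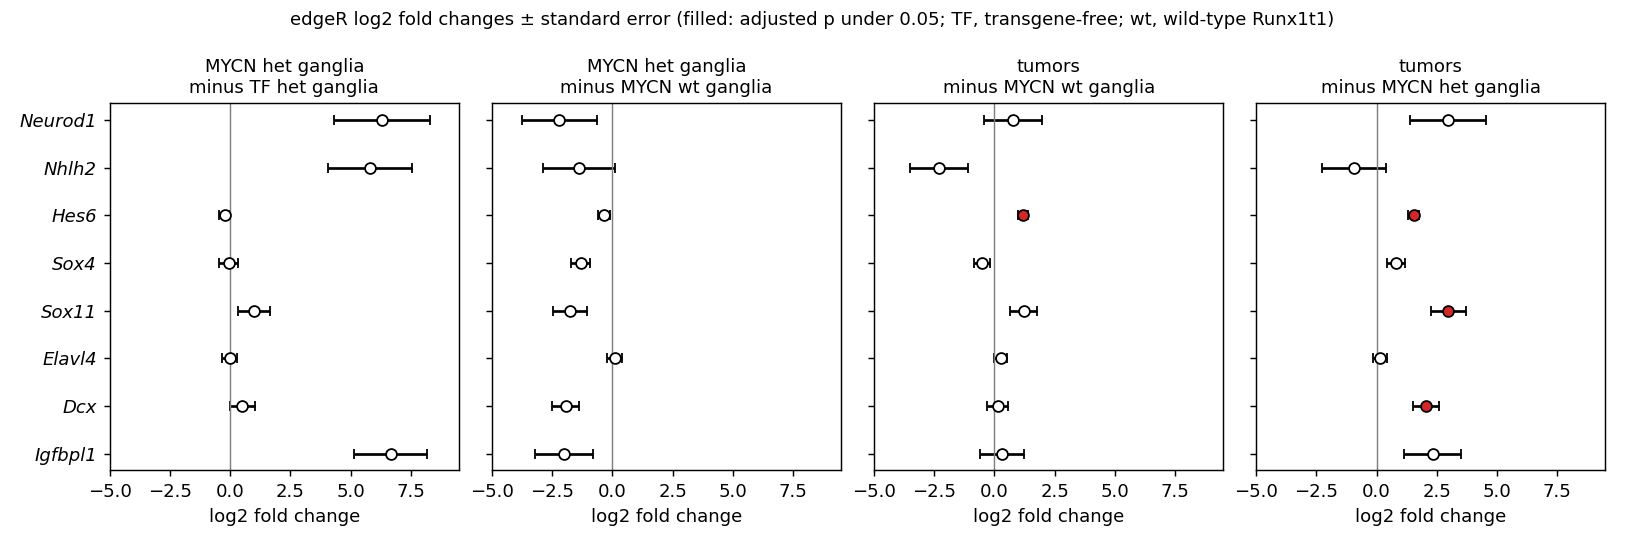
Log2 fold change (points) with its standard error (bars) for the 8 genes that passed the filter, in 4 comparisons fitted by edgeR; filled points have an adjusted p under 0.05. Hes6 passes in both tumor comparisons and Sox11 and Dcx against MYCN ganglia labelled het, while in the left panel the fitted folds of Neurod1, Nhlh2 and Igfbpl1 depend on the prior count because they are near 0 reads in the controls.

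Tumors, which carry the transgene for which the genes were picked, are set against all 7 transgene-free ganglia as a description. All of the 8 but Elavl4 had every tumor above every transgene-free ganglion in CPM, beside 22.7% of all genes tested. The margin was thin for Nhlh2, whose lowest tumor was at 0.367 CPM and whose highest transgene-free ganglion was at 0.320 CPM. On the TPM scale the lowest tumor for Sox4, at 151 TPM, fell just below the highest transgene-free ganglia at 153 TPM. The same held for Nhlh2, with its lowest tumor at 0.20 TPM and its highest transgene-free ganglion at 0.24 TPM. Log2 fold changes were 4.05 (SE 0.47) for Sox11, 2.68 (0.36) for Dcx, 1.34 (0.15) for Hes6, 0.90 (0.26) for Sox4 and 0.31 (0.21) for Elavl4. Summed counts, scaled for library size, were 1620 times higher for Neurod1 (95% exact interval 448 to 13390, counting error only), 788.5 times for Igfbpl1 (415 to 1725) and 49.1 times for Nhlh2 (26.4 to 103).

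Against MYCN wild-type ganglia, of the same genotype at 2 weeks of age, Hes6 alone of the 8 genes passed the test. These ganglia are also taken to have named the members, so neither the direction nor the number of calls is free of that choice. Its log2 fold change was 1.19 (SE 0.20, adjusted p = 0.000543 by edgeR), a 2.28-fold ratio of mean CPM, and all 4 tumors were above all 3 ganglia in CPM. Hes6 passed under every alternative run, with adjusted p from 1.18e-07 (DESeq2) to 0.0127 (a fit of these 2 groups only). Of all genes tested 14% were called higher and 20.5% lower. Sox11 was 2.32-fold higher by mean CPM, with all 4 tumors above all 3 ganglia in CPM, and did not pass (log2 fold change 1.22, SE 0.57, adjusted p = 0.111, edgeR). In TPM the groups overlapped for Sox11, as tumors 2 and 3 (95.9 and 92.0 TPM) were below replicate 1 of the ganglia (99.5 TPM), and for Hes6 the lowest tumor (47.0 TPM) was just above the highest ganglion (46.4 TPM). Sox4 (-0.51, adjusted p = 0.237), Nhlh2 (-2.32, adjusted p = 0.151), Neurod1 (0.78, adjusted p = 0.651), Igfbpl1 (0.31, adjusted p = 0.816), Dcx (0.13, adjusted p = 0.838) and Elavl4 (0.26, adjusted p = 0.475) did not pass by edgeR. Replicate 1 of the ganglia decided 2 of these, since without it Sox11 (2.14, adjusted p = 0.00993) and Neurod1 (4.09, adjusted p = 0.0199) passed by edgeR. Neurod1 also passed with a term for depth (3.87, adjusted p = 0.0200, edgeR). As replicate 1 was the only library of these 2 groups under 20000000 counts, that term is not independent of leaving that replicate out. Without replicate 3, Sox4 passed in the other direction (-0.86, adjusted p = 0.0300).

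Against MYCN ganglia labelled het, tumors were higher for 3 of the 8 genes, where 22% of all genes were higher and 23.5% lower. Both groups carry the transgene and may have weighed in the choice of the members. Neither the direction nor the number of calls is therefore free of that choice. Hes6 rose by 1.53 on the log2 scale (SE 0.23, adjusted p = 0.000181), Sox11 by 2.98 (SE 0.73, adjusted p = 0.00446) and Dcx by 2.06 (SE 0.55, adjusted p = 0.00747), by edgeR. As ratios of mean CPM these are 2.89, 7.90 and 4.17, with all 4 tumors above both ganglia. Neurod1 (2.97, adjusted p = 0.149), Igfbpl1 (2.32, adjusted p = 0.126), Sox4 (0.81, adjusted p = 0.1001), Nhlh2 (-0.95, adjusted p = 0.586) and Elavl4 (0.15, adjusted p = 0.704) did not pass. Without replicate 1 of the ganglia, Sox11 (2.42, adjusted p = 0.0700) and Dcx (1.53, adjusted p = 0.109) no longer passed and Hes6 did. With a term for depth, Neurod1 (7.23, adjusted p = 0.00474), Igfbpl1 (4.46, adjusted p = 0.0325) and Sox4 (1.24, adjusted p = 0.0373) passed by edgeR as well. Both of these ganglia were under 20000000 counts and all 4 tumors above it, so depth and group coincide in this comparison. Nothing is read from the calls with the depth term. Sox4 also passed in an edgeR fit of these 2 groups alone (0.79, adjusted p = 0.0283).

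The tissue of tumors and ganglia differed in makeup beside these results. The cycling sum was at 1529 to 1910 TPM in tumors, and 10 of its 10 markers were higher than in MYCN ganglia labelled het and 1 of 10 than in MYCN wild-type ganglia. All 8 glia markers were lower in both comparisons, with sums of 13.8 to 21.4 TPM in tumors and 487 to 2004 TPM in ganglia and no marker at 0 in a whole group, and all 6 fibroblast markers were lower too. Of 14 sympathetic neuron markers 8 were lower than in MYCN wild-type ganglia, and 9 were lower and 1 higher than in those labelled het, with sums of 1730 to 2456 TPM in tumors. Of 6 adrenal cortex markers, 1 was lower than in MYCN wild-type ganglia and 5 lower than in those labelled het, with 0 higher. Of 9 pancreatic markers only 2 could be tested, and of these Sst alone was called, lower in both comparisons (log2 fold changes -8.93 and -8.88). Nothing is read from Sst about pancreatic tissue. The part of these shifts in the tumor values of the members was not tested.

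Genes of the same families and pathways were counted in 7 lists. By edgeR, no gene of these lists was called between MYCN ganglia labelled het and either transgene-free ganglia labelled het or MYCN wild-type ganglia, between the transgene-free groups, or in the interaction. Of all genes tested, 0.012% were called between MYCN ganglia labelled het and MYCN wild-type ganglia. In the other comparisons just named the share was 0%, so nothing is read from the absence of calls. The lists were not counted in MYCN wild-type against transgene-free wild-type ganglia, nor by DESeq2. Over all genes tested, 14% were higher and 20.5% lower in tumors than in MYCN wild-type ganglia. Against those labelled het the shares were 22% and 23.5%. The 1 of 7 zinc finger genes and the 1 of 8 Igfbp genes called higher against MYCN wild-type ganglia are near these shares. So are the 1 of 7 zinc finger genes and the 2 of 8 Igfbp genes lower in each comparison. The 4 of 21 cytoskeleton genes higher against ganglia labelled het are near them too, and nothing is read from these counts. Of the partners and kin of the helix-loop-helix factors, 6 of 11 could be tested. The E-protein genes Tcf4 (1.52, adjusted p = 0.00117) and Tcf3 (1.46, adjusted p = 0.0112), whose products pair with Neurod and Nhlh proteins, rose in tumors against MYCN wild-type ganglia by edgeR, and Bhlhe22 fell (-2.95, adjusted p = 0.0461), with at most 6 reads in any tumor. Against MYCN ganglia labelled het, the E-protein genes Tcf4 (2.52, adjusted p = 8.60e-05), Tcf3 (2.34, adjusted p = 0.00152) and Tcf12 (1.39, adjusted p = 0.00317) rose by edgeR, and 0 genes of the list fell.

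Around Hes6, the Hes, Hey and Id genes, many of which hold back neuronal differentiation, had calls only in the lower direction in tumors. Of 12 listed and 9 tested, 5 were lower in tumors than in MYCN wild-type ganglia and 7 lower than in those labelled het, with 0 higher in either. The 4 with the smallest adjusted p by edgeR against ganglia labelled het were Hey2 (-5.15, adjusted p = 0.000163), Hey1 (-1.83, adjusted p = 0.000251), Id4 (-3.78, adjusted p = 0.000346) and the Notch effector Hes1 (-2.69, adjusted p = 0.000397). Glial cells express several of these genes, and the glia sums above were lower in tumors too, but their part in these values was not tested.

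Around Sox4 and Sox11, 9 other Sox genes were tested, of which 6 were lower in tumors than in MYCN wild-type ganglia and 7 lower than in those labelled het, and 0 higher. Sox10, the glial and crest factor that is also on the glia marker list, was at a log2 fold change of -5.37 (adjusted p = 7.21e-06, edgeR) and Sox6 at -2.96 (adjusted p = 0.000799) against ganglia labelled het. Sox3 had 0 reads in all tumors and 21 to 106 in MYCN ganglia, and Sox2, a factor of neural stem cells and glia, had 0 to 4 and 55 to 346. In the same edgeR fit of all groups, Sox11 was called higher against ganglia labelled het and Sox4 in neither comparison, though Sox4 passed under the other settings given above.

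Zinc finger regulators of neuronal genes gave 1 higher and 1 lower of 7 against MYCN wild-type ganglia and 3 higher and 1 lower against those labelled het. Insm2 (2.23, adjusted p = 0.00633, edgeR) and Myt1 (1.31, adjusted p = 0.0238) rose and Rest (-1.72, adjusted p = 0.0149), a repressor of neuronal genes outside neurons, fell against ganglia labelled het. St18 was called in both, but its tumor counts ran from 2 to 5685 reads against 3 to 49 in MYCN ganglia, so 1 fold does not describe it.

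Around Elavl4, the other neuronal RNA-binding protein genes gave 2 higher and 0 lower of 10 against MYCN wild-type ganglia and 3 higher and 1 lower against those labelled het. The counts called higher are near the shares of all genes called higher, 14% and 22%, and nothing is read from the counts of this list. Elavl1, the family member expressed in most cell types, was higher in both (1.17, adjusted p = 0.00309, and 1.93, adjusted p = 0.000243, edgeR), as was Nova2 (1.07, adjusted p = 0.00888, and 1.41, adjusted p = 0.00318). Elavl3 (1.39, adjusted p = 0.00827) rose and Celf4 (-1.14, adjusted p = 0.00593) fell against ganglia labelled het.

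Around Dcx, kin and other cytoskeleton genes of young neurons were called lower in tumors more often than higher. Of 21, 0 were higher and 11 lower than in MYCN wild-type ganglia, and 4 were higher and 10 lower than in those labelled het. By edgeR against ganglia labelled het, the 4 with the smallest adjusted p were Dpysl3 (-3.42, adjusted p = 0.000178), the tau gene Mapt (-2.59, adjusted p = 0.000462) and the doublecortin-like kinase gene Dclk3 (-3.92, adjusted p = 0.000547), which fell, and Marcksl1 (2.49, adjusted p = 0.000559), which rose. The other 3 that rose were Stmn1, Stmn4 and Dclk2, from 1.45 down to 0.74 on the log2 scale. Dcx, which rose by 2.06 in that comparison, was on the side of the 4 and not of the 10. The sympathetic neuron markers were lower in the same comparisons, 8 and 9 of 14, with sums of 1730 to 2456 TPM in tumors against 6536 to 22460 TPM in MYCN ganglia, and their part in the values of this list was not tested.

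Around Igfbpl1, 8 genes of insulin-like growth factor binding proteins and their kin gave 1 higher and 2 lower in each tumor comparison. Igfbp2 was higher in both (2.64, adjusted p = 0.0382, and 5.46, adjusted p = 0.00407, edgeR) and Igfbp6 lower in both (-2.10, adjusted p = 0.0409, and -2.78, adjusted p = 0.0120). Kazald1 fell against MYCN wild-type ganglia (-2.86, adjusted p = 0.0264) and Igfbp7 against those labelled het (-1.78, adjusted p = 0.0244).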

How the data were processed

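RNA-Seq of 16 mouse libraries in 5 groups was used, with group and replicate taken from the sample titles. In the column headers Runx1t1 is Het or Hom, and Hom was read as wild type because the titles of the same samples say so; 0 columns were left unmapped. The authors aligned paired-end reads from SMARTer Stranded Total RNA libraries to mm10 with STAR and quantified them with RSEM, and deposited expected counts, which are not normalized, and TPM, which RSEM scales to a fixed sum per library. The labels give the molecule as polyA RNA. RSEM shares out reads among near copies. The ribosomal RNA gene Rn45s held 2.15 to 12.8% of counts and was left out in 1 alternative.

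Expected counts were rounded and tested with edgeR 4.0.16 in R 4.3.3 (filterByExpr by group, which kept 16665 of 19887 genes with a count; TMM; quasi-likelihood; all 5 groups in 1 fit; Benjamini-Hochberg over all genes, threshold 0.05). Levels are TPM, and folds of mean levels are of TMM-normalized CPM. Count ratios have exact 95% intervals. Python 3.11.15 with pandas 2.3.3, numpy 2.4.6, scipy 1.17.1 and matplotlib 3.10.9 made levels, likeness and figures. Scripts were tested on simulated data. No 2 libraries were identical.

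The members, gene lists and tests were chosen with earlier results of these data known. All 10 members are named, and of each family or pathway list at most 4 genes per comparison with the smallest adjusted p. A few others, each from a count of 5 or fewer, were named after their values were seen. Some genes of the lists are not reported here by name. Alternatives were upper-quartile and RLE scaling (which moved the median of all genes by -0.0283 to 0.0280 on the log2 scale), no filter or at least 10 counts in 2 libraries, DESeq2 1.42.0, a replicate block, a depth term, only the groups compared, no Rn45s, another pseudocount and unit, and leaving out each library. Positions are from GENCODE vM21 (GRCm38) and promoter sequences from RefSeq (GRCm38.p6).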

Additional observations from a re-analysis of the deposited data

Results flagged for a closer look

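The 8 genes that passed the filter were searched in the groups of 4, transgene-free wild-type ganglia and tumors. By Dixon's criterion 3 values stood far from the others, which chance alone meets in about 1 of 20 groups if values follow a normal distribution. Dcx in tumor 1 was at 471 CPM, against 299 to 324 CPM in the other 3. Hes6 in tumor 1 was at 30.2 CPM, against 49.8 to 52.3 CPM in the other 3. Nhlh2 in transgene-free wild-type replicate 3 was at 0.141 CPM, from 4 reads, with 0 in the other 3. With 0 in the others any count meets the criterion, so nothing is read from the flag on Nhlh2.

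For Hes6, MYCN minus transgene-free ganglia had opposite signs by Runx1t1 label, with a mean difference of log2(CPM + 1) of -0.224 in ganglia labelled het and 0.166 in wild-type ganglia. The fitted log2 fold changes, -0.22 (SE 0.23) and 0.17 (SE 0.19), were each smaller in size than their standard error. No effect of MYCN on Hes6 is therefore read in either genotype. The interaction did not pass the test (adjusted p = 0.851, edgeR).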

How the results depend on the processing

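The number of replicates, 2 to 4 per group, and the depth limit what can be seen, above all for Neurod4, Nhlh1 and the 3 genes near 0 reads without the transgene. In place of 0 of the 8 genes called, MYCN against transgene-free ganglia labelled het gave 1 with DESeq2 and 1 when only the groups compared were fitted. MYCN ganglia labelled het against MYCN wild-type ganglia gave 1 with DESeq2 and 0 to 3 as single libraries were left out. In place of 1, tumors against MYCN wild-type ganglia gave 2 with a depth term and 1 to 3 as libraries were left out. In place of 3, tumors against MYCN ganglia labelled het gave 6 with a depth term and 1 to 3 as libraries were left out. Sox4 was added to the 3 when only the groups compared were fitted. The 4 genes of MYCN wild-type ganglia that did not overlap with transgene-free wild-type ganglia became 4 to 7. For these changes the cause was not tested. Except for DESeq2 among ganglia, the share of all genes called in these other fits is not given here or above. The counts of members in them are therefore not set against a background, and nothing is read from them.

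Signs of uncalled log2 fold changes turned in 20 cases. With a depth term Nhlh2 in tumors against MYCN ganglia labelled het was at 1.13. With the replicate block Elavl4 in MYCN against transgene-free ganglia labelled het was at 0.16. The others came from leaving out libraries, where that comparison ran from -0.44 to 0.26 for Sox4, -0.15 to 0.11 for Elavl4 and -0.34 to 1.03 for Dcx. MYCN ganglia labelled het against MYCN wild-type ganglia ran from -4.20 to 1.11 for Neurod1, -3.17 to 0.40 for Nhlh2 and -0.037 to 0.20 for Elavl4. Transgene-free ganglia labelled het against wild-type ones ran from -0.42 to 4.32 for Nhlh2 (values set by the prior count, since at most 4 reads stand behind them), -0.012 to 0.12 for Hes6 and -0.035 to 0.37 for Sox11. Tumors against MYCN wild-type ganglia ran from -0.86 to 0.021 for Sox4, -0.27 to 0.67 for Dcx and -0.29 to 1.89 for Igfbpl1. Tumors against MYCN ganglia labelled het ran from -1.72 to 0.85 for Nhlh2 and -0.026 to 0.28 for Elavl4.

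Labels give the groups shared replicate numbers. Over all groups same-numbered libraries did not deviate together throughout (r from -0.315 to 0.319 over 25 pairs, 7 of them above 0.1, with 5 of 16 libraries most like one of their own number). Transgene-free wild-type ganglia and tumors were an exception, with r from 0.148 to 0.319 in all 4 pairs, and in tumors against all transgene-free ganglia the replicate block gave 4.03 for Sox11, 2.66 for Dcx, 1.303 for Hes6, 0.90 for Sox4 and 0.35 for Elavl4. A fit with the replicate block called 0 members in each comparison among ganglia and in the interaction, 1 in tumors against MYCN wild-type ganglia and 3 against those labelled het, as without it.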

Other observations

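Of the other genes tested whose TPM averaged 1 or more, the 5 whose pattern over the 16 libraries was most like the mean standardized level of the 8 genes were Zfp711 (Pearson r = 0.982), Magi2 (0.980), C77370 (0.978), Hrk (0.974) and Hipk2 (0.974). Hrk, which encodes a protein that promotes neuronal cell death, was at 0.88 to 3.78 TPM in transgene-free ganglia, 7.07 to 44.1 TPM in MYCN wild-type ganglia, 4.08 to 9.34 TPM in MYCN ganglia labelled het and 17.6 to 24.1 TPM in tumors. Over the 12 ganglia alone the 5 were Hdgfrp3 (r = 0.991), Rcor2 (0.984), Zfp711 (0.983), the axon guidance gene Slit2 (0.981) and Ccser1 (0.979). With a pseudocount of 0.1 in place of 1, 3 of the 5 were the same genes in each set. These values describe libraries that share 5 groups, so genes that differ between the groups are alike for that reason, and no test was made.

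The members followed their own mean to different degrees. Over the 16 libraries r was 0.973 for Dcx, 0.971 for Sox11, 0.956 for Igfbpl1, 0.948 for Neurod1, 0.905 for Sox4, 0.775 for Nhlh2, 0.693 for Hes6 and 0.627 for Elavl4. Over the 12 ganglia Nhlh2 was at 0.916, while Hes6 and Elavl4 were at 0.576 and 0.565. Each gene is part of the mean it is set against, and these are descriptions.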
